A study of Mus musculus with 5 samples.

Results

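Chemokines are small secreted proteins that draw leukocytes into tissue by binding receptors on their surface. The probe sets described here measure 10 listed members of this family, chosen by symbol: eotaxin (Ccl11), TARC (Ccl17), Ccl22, Ccl2, Ccl7, Ccl5, Ccl6, Ccl9, Cxcl12 and Cxcl15. Each probe set reads one transcript with several short probes, and it was taken when the platform annotation gave exactly 1 gene symbol and that symbol, or its older Scya or Scyb synonym, was a listed member. This gave 11 of the 12422 probe sets, for 9 of the 10 genes and of the 8251 genes with a probe set of their own. Cxcl12 has 3 probe sets and each of the other genes has 1. Cxcl15, the lungkine of mouse lung epithelium, has no probe set named by this rule and was not analysed here.

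The study put saline or interleukin-13 (IL-13), a cytokine of T helper 2 cells, into the trachea of A/J mice and measured total RNA of the lung on 5 arrays. There were 2 saline arrays, with title numbers 6 and 48, and 3 IL-13 arrays, with title numbers 6, 18 and 48. The title numbers have no unit in the labels, and arrays are called here by treatment and number, as in saline 6. The labels give neither age, sex, dose or number of animals per array nor whether any 2 arrays share an animal. The p-values therefore measure only how these arrays spread, which may be technical. The title of IL-13 6 also ends in s3, where the other titles end in s2, and the labels do not explain this ending.

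In the airway, IL-13 acts through a receptor on epithelium, fibroblasts and smooth muscle and activates the transcription factor STAT6. Eotaxin and TARC are well known products of cells exposed to IL-13 or its relative IL-4. Eotaxin attracts eosinophils through the receptor CCR3, and TARC and Ccl22 attract T helper 2 cells through CCR4. Ccl2 and Ccl7 attract monocytes, Ccl5 attracts T cells and other leukocytes, Ccl6 and Ccl9 are CC chemokines of rodents that act on myeloid cells, and Cxcl12 retains CXCR4-bearing cells in tissues.

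Values are intensities on a linear scale, scaled alike on all arrays. A value below 55.3, the 20th percentile of all values, was set to this floor before log2 was taken, and a ratio against such a value is written with "at least". A probe set was tested when 2 or more arrays put it over 210, which is the 40th percentile. Of the 11 chemokine probe sets 8 were tested, for 6 genes, and the probe sets of Ccl2, Ccl7 and Ccl6 were too dim. Levels of different probe sets are not comparable with each other.

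The arrays differed in markers of tissue content within each treatment. The airway marker Scgb1a1 was bright on all arrays (22023 to 31024), whereas the alveolar surfactant gene Sftpc gave 2615 and 194 under saline (6, 48), then 257, 17178 and 300.5 under IL-13 (6, 18, 48), so that 3 arrays labelled as lung held little of it. Salivary gland markers (7 of 8 on the array) summed to 101030 on saline 6 and to 574 to 889 on the other arrays. B cell and lymph node markers (7 of 10) summed to 11090 on saline 6, 1414 on saline 48 and 1257 to 3634 with IL-13. T cell markers (11 of 13) summed to 10437 and 13435 with saline and to 2823 to 6623 with IL-13. No marker of these 3 lists was below the floor on all arrays. Saline 6 and IL-13 18 stand apart, and results that rest on them are also given without them.

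None of the 8 tested member probe sets passed the test of IL-13 against saline, but most members shared an order over the IL-13 arrays. On these, 7 of the 11 probe sets were highest at title number 6, lower at 18 and lowest at 48: Ccl11, Ccl17, Ccl22, Ccl2, Ccl7, Ccl6 and Ccl9. This order was found in 17.5% of all 12422 probe sets, and it was chosen for counting after the values had been seen. The counts below bear on the same order, and the members were chosen with earlier results of these data known. The shares beside them are therefore description and no test. Of the 7 genes all except Ccl22 also had their highest value of all 5 arrays on IL-13 6, where 21.8% of all probe sets did. IL-13 48 was the lowest of all 5 arrays for 5 of the 11 probe sets, beside 14.8%. Without IL-13 18, 9 of the 11 probe sets were higher on IL-13 6 than on IL-13 48, beside 49.9% of all. IL-13 6 was at least 2-fold above IL-13 48 for 6 of the 11 probe sets, beside 2.99% of all probe sets and 4.23% of those too dim to be tested. Each title number holds 1 IL-13 array, so there is no replicate check of this order, and the part of the different title ending of IL-13 6 cannot be told apart from the title number.

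**Figure D1:**
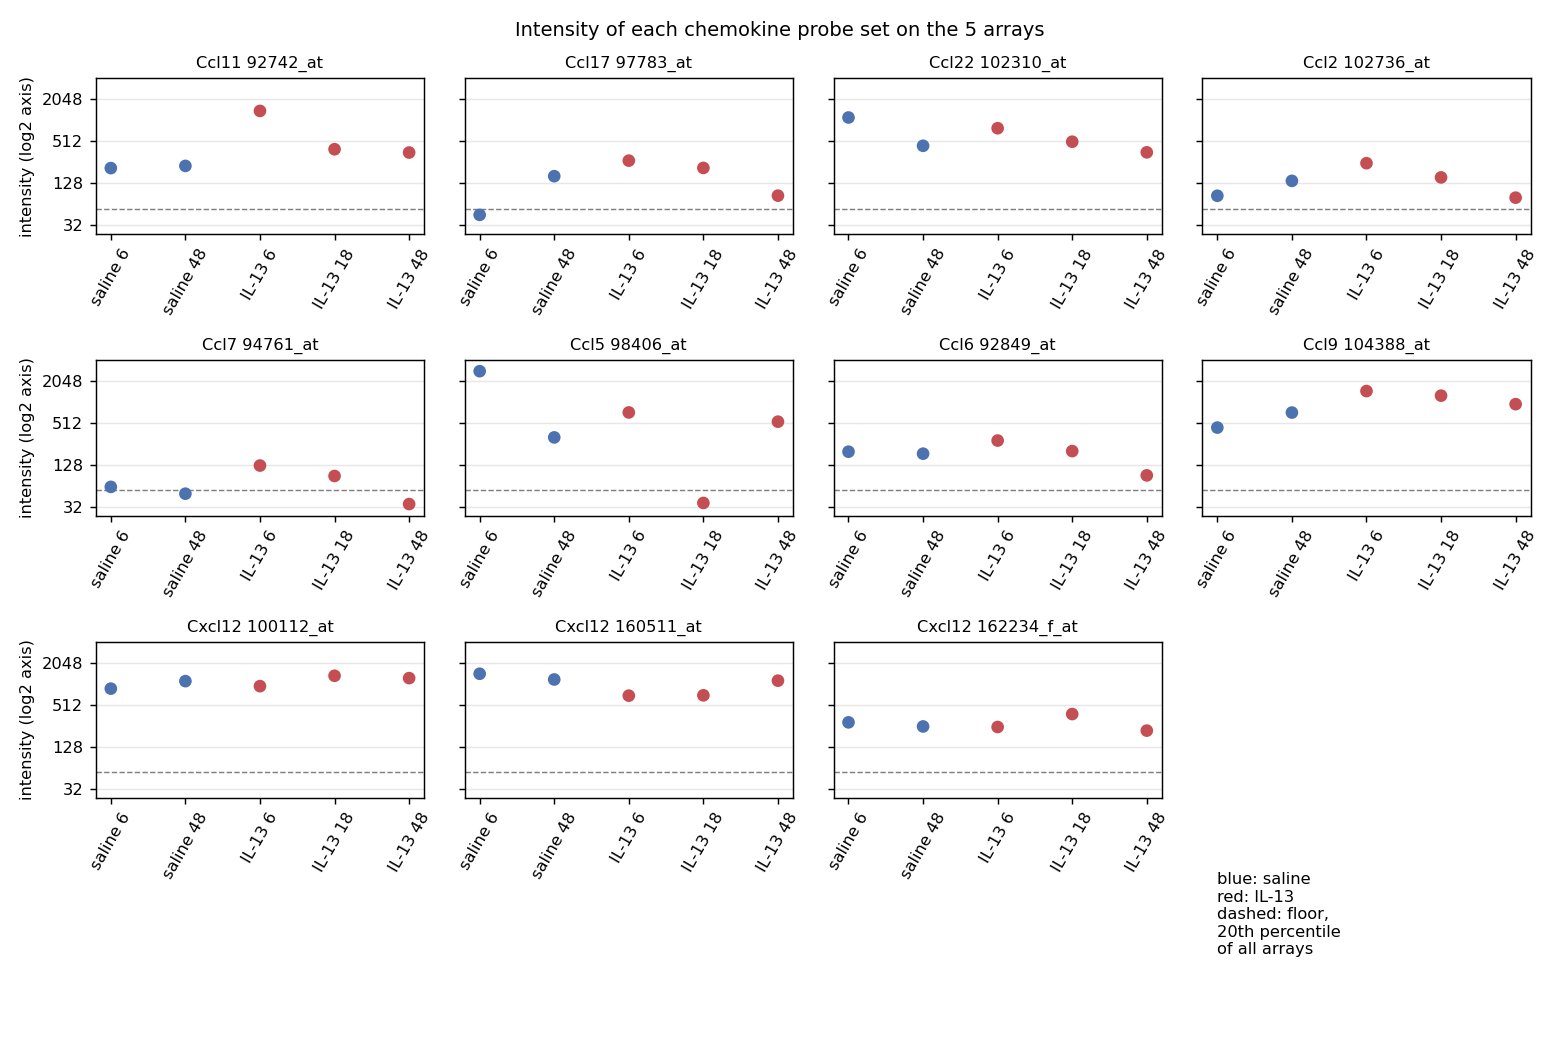
Intensity of the 11 chemokine probe sets (vertical, log2 axis) on the 5 arrays (horizontal), with saline in blue, IL-13 in red and the floor of 55.3 dashed. Each point is 1 array; Ccl11 stands out on IL-13 6 (1399) and Ccl5 on saline 6 (2859).

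Over all 5 arrays, limma (an empirical Bayes linear model fitted over 7811 probe sets, two-sided, with Benjamini-Hochberg adjustment) called 0 of the 8 chemokine probe sets at an adjusted p of 0.05, beside 0.0512% of all probe sets tested. Without adjustment 3 of the 8 had a p under 0.05, beside 5.29% of tested probe sets with IL-13 higher and 3.97% lower. These were Ccl11 and Ccl9, with all 3 IL-13 arrays above both saline arrays, and the Cxcl12 probe set 160511_at, with all 3 below. Groups that did not overlap were found for 14.8% of tested probe sets with IL-13 higher and 11.0% with IL-13 lower. The count of 0 calls was the same with limma's trend and robust settings.

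Eotaxin was the member with the largest measured difference at title number 6. Ccl11 had an intensity of 211 and 227 on the saline arrays (6 and 48), against 1399, 394 and 353 on the IL-13 arrays (6, 18 and 48). Every IL-13 array was above both saline arrays, which were close to each other, and IL-13 6 lay far above the rest. The ratio of IL-13 to saline was 6.63 at title number 6 and 1.56 at 48, and IL-13 18 was 1.87 times saline 6 and 1.74 times saline 48. Only 8 of the 7811 tested probe sets, Ccl11 included, were as far apart in this direction at title number 6 (0.102%), and 5.38% were at 48. Within IL-13, the array of title number 6 was 3.55 times that of 18 and 3.96 times that of 48. The log2 difference of IL-13 minus saline was 1.41 (SE 0.58, limma adjusted p = 0.539), and it was 0.77 without IL-13 6. With saline 48 as the control the ratio at title number 6 was 6.17, so it did not rest on saline 6. In bulk RNA, more cells of a type and more RNA per cell cannot be told apart.

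Eosinophils, the cells that eotaxin attracts, gave little signal in the markers that were on the array. Of 11 eosinophil markers 5 were on the array and none was tested. Prg2 (major basic protein), Epx (eosinophil peroxidase) and Il5ra (the IL-5 receptor chain) were below the floor on all arrays. Prg3 gave 133 and 75.6 under saline, then 26.5, 33.0 and 74.7 under IL-13, with IL-13 48 just under saline 48. The sum of the 5 was 203 and 192 with saline and 129 to 187 with IL-13. Ccr3, the eotaxin receptor, gave 24.2 and 66.5 under saline, then 73.9, 55.9 and 66.5 under IL-13, near the floor on every array.

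The genes most alike Ccl11 over the 5 arrays were Krt6a, a keratin, Psca, a surface protein, Alox15, a lipoxygenase, Serpinb2, a protease inhibitor, and Sprr1a, a cornified envelope protein. Likeness was the root mean square difference of log2 values over the 5 arrays after each profile was centred on its mean, taken over tested genes. It was 0.119 for Krt6a, 0.274 for Psca, 0.280 for Alox15, 0.358 for Serpinb2 and 0.368 for Sprr1a. Krt6a gave 808 and 800.1 under saline, then 5158, 1202 and 1339 under IL-13. Alox15 gave 632 and 441 under saline, then 2530, 1041 and 712 under IL-13. Like eotaxin, both were highest on IL-13 6.

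TARC was dim, and its difference depended on which saline array it was set against. Ccl17 had an intensity of 44.9 and 162 on the saline arrays (6 and 48), against 270, 212 and 84.8 on the IL-13 arrays (6, 18 and 48). IL-13 6 and 18 lay above both saline arrays, and IL-13 48 lay between them. IL-13 was at least 4.89 times saline at title number 6 and 0.525 times at 48. IL-13 6 was 1.67 times saline 48 and 3.19 times IL-13 48. The log2 difference was 0.84 (SE 0.62, limma adjusted p = 0.726), and it was 0.07 without saline 6, 1.62 without saline 48 and 0.12 with the floor at the 40th percentile. Only IL-13 6 and 18 put it over 210, so it was tested through IL-13 arrays alone. Its highest value stayed under the median of all values (343), below which no 2-fold difference was counted.

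Ccl22, which shares the receptor CCR4 with TARC, showed another pattern at title number 6. Ccl22 had an intensity of 1125 and 441 on the saline arrays (6 and 48), against 789, 505 and 355 on the IL-13 arrays (6, 18 and 48). The groups overlapped, and saline 6 was the highest array. The ratio of IL-13 to saline was 0.702 at 6 and 0.805 at 48, with a log2 difference of -0.43 (SE 0.48, limma adjusted p = 0.815) that was 0.24 without saline 6. Dendritic cell markers (10 of 11 on the array), whose cells are known to make Ccl22, summed to 27876 on saline 6, 15735 on saline 48 and 13179 to 13583 with IL-13. The MHC class II genes Cd74, H2-Aa and H2-Eb1, which B cells share, made up 25320 of the sum on saline 6. The other 7 summed to 2556 and 1669 under saline, then 1992, 2336 and 2139 under IL-13, again highest on saline 6 but lowest on saline 48. None of the 10 markers was below the floor on all arrays, and their part in the Ccl22 values was not tested. Ccr4, the receptor of TARC and Ccl22, was below the floor on all 5 arrays (27.0 to 44.6).

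Ccl22, Cx3cl1 and Ccl17 follow each other on mouse chromosome 8 in the RefSeq annotation of GRCm38.p6. The 250 bases before the starts of Ccl17 and Ccl22 are shown because these neighbours differed at title number 6. That difference rested on saline 6. Against saline 48, IL-13 6 was 1.67 times for Ccl17 and 1.79 times for Ccl22. Without saline 6 their log2 differences were 0.07 and 0.24. Capitals mark TTC and GAA with 4 bases between, the spacing that STAT6 favours, and TTC and GAA with 3 bases between, which STAT proteins share. Both were searched on both strands, where they read the same. Sequences are from RefSeq, 5′ to 3′ on the gene's strand, and promoter entries were found for 6 of the 10 members.
Ccl17, chr8:94810203-94810452, plus strand: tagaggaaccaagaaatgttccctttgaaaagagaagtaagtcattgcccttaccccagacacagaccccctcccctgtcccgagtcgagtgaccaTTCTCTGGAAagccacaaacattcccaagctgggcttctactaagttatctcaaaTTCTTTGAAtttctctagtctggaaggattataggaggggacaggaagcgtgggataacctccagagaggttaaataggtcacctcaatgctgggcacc
Ccl22, chr8:94745434-94745683, plus strand: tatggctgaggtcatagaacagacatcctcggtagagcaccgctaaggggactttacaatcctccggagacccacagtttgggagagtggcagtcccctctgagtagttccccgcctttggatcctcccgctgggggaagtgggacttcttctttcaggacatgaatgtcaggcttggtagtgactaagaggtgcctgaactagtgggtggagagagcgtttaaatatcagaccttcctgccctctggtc
The Ccl17 window holds the spacing of 4 once, its first base 154 bases before the start, and the spacing of 3 once, 99 bases before it. The 2 matches do not overlap. The Ccl22 window holds neither. Of 32851 promoter windows of the same length, 5.85% hold the spacing of 4 and 7.02% that of 3. A match of letters is a description of the window and not a site of binding.

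The genes most alike Ccl17 over the arrays were Epha2, an ephrin receptor (0.245), Slc6a4, the serotonin transporter (0.261), Rufy3 (0.277), Cyp27b1, which makes active vitamin D (0.315), and Plekha1 (0.322), by the same measure. All of them were dim, and the brightest value among them was 296 (Rufy3 on IL-13 6). Like Ccl17, Epha2, Rufy3, Cyp27b1 and Plekha1 were over 210 only on IL-13 6 and 18. Only tested genes were searched, so the filter itself selects dim genes with this pattern, and no conclusion is drawn from the likeness.

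**Figure D2:**
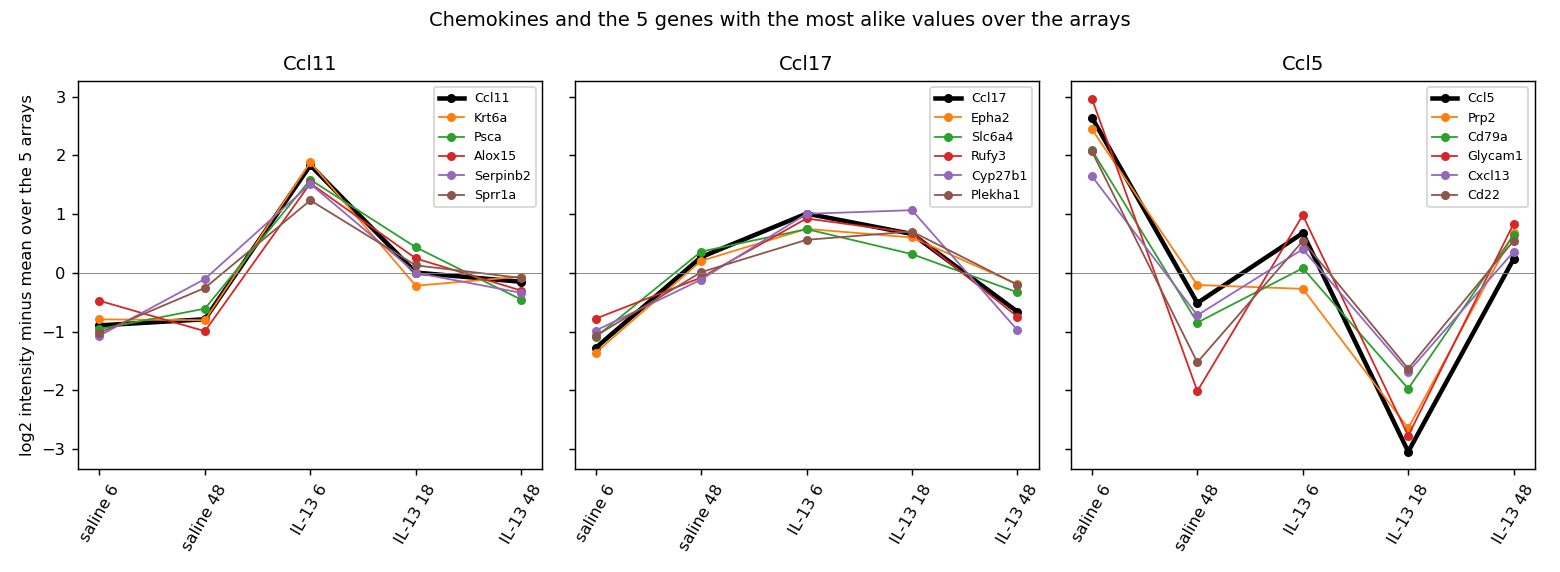
Log2 intensity minus its own mean over the 5 arrays (vertical) by array (horizontal) for Ccl11, Ccl17 and Ccl5 (black) and the 5 genes with the most alike values. Lines join arrays for reading only; Krt6a follows Ccl11 (0.119), while genes alike Ccl5 are highest on saline 6 and lowest on IL-13 18.

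Ccl2 and Ccl7 precede Ccl11 on mouse chromosome 11 and encode monocyte chemoattractants. Ccl2 had an intensity of 84.5 and 138 on the saline arrays (6 and 48), against 248, 155 and 79.4 on the IL-13 arrays (6, 18 and 48). Ccl7 gave 62.3 and 49.7 under saline, then 126, 89.3 and 35.3 under IL-13. Both genes were highest on IL-13 6, second on IL-13 18 and lowest on IL-13 48, so the groups overlapped. The ratio at title number 6 was 2.94 for Ccl2 and 2.02 for Ccl7. Against saline 48 it was 1.79 for Ccl2 and at least 2.28 for Ccl7. At title number 48 the ratio was 0.574 for Ccl2, and Ccl7 was below the floor on both arrays. At these levels 5.81% of the probe sets too dim to be tested were at least 2-fold above saline 6 on IL-13 6, and Ccl2 and Ccl7 were 2 of the 3 untested chemokines to be so.

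The receptor of Ccl2, Ccr2, showed a different order. Ccr2 had an intensity of 226 and 497 on the saline arrays (6 and 48), against 245, 477 and 602 on the IL-13 arrays (6, 18 and 48) (log2 difference 0.30, SE 0.47, limma adjusted p = 0.880). It was low on both arrays of title number 6. Macrophage and monocyte markers (11 of 12 on the array, none below the floor throughout) summed to 17150 and 21425 with saline and 17551 to 20074 with IL-13, so the groups overlapped. Lyz2 made up most of this, and the other 10 summed to 6442 and 6366 with saline and to 5277 to 6316 with IL-13.

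Ccl9 had the smallest adjusted p of the members. Ccl9 had an intensity of 443 and 728 on the saline arrays (6 and 48), against 1482, 1273 and 961 on the IL-13 arrays (6, 18 and 48). All 3 IL-13 arrays were above both saline arrays, and the lowest of them, IL-13 48, was 1.32 times saline 48. The ratio at title number 6 was 3.35, and 2.04 against saline 48. The log2 difference was 1.10 (SE 0.29, 95% interval 0.41 to 1.80, limma adjusted p = 0.378). It ranged from 0.74 without saline 6 to 1.46 without saline 48, and the adjusted p lay between 0.138 and 0.725 over the alternatives. As far in this direction were 0.845% of the tested probe sets.

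Ccl6, the neighbour of Ccl9 on chromosome 11, was dim and did not share its pattern at title number 48. Ccl6 gave 199 and 187 under saline, then 288, 203 and 91.1 under IL-13. Its ratio was 1.44 at 6 and 0.488 at 48, so IL-13 48 was 2.05-fold below saline 48. The window before Ccl9 is shown as the member with the smallest adjusted p that has a promoter entry, with GGG and TTTCC separated by 2 bases, a motif of the NF-kappaB kind, in capitals, found here on the opposite strand.
Ccl9, chr11:83578637-83578886, minus strand: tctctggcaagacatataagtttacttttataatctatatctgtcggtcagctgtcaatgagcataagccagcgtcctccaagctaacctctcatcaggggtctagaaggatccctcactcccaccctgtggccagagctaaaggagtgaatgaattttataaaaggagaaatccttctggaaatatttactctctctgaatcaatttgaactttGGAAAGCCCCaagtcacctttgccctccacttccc
The match starts 35 bases before the start of Ccl9, and 1.41% of all windows of this length hold this motif on either strand. The windows of Ccl6, Ccl17 and Ccl22 do not hold it. The Ccl9 window holds neither of the STAT spacings described for Ccl17.

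Ccl5 (RANTES) had the widest spread of all the members. Ccl5 had an intensity of 2859 and 320 on the saline arrays (6 and 48), against 731, 36.6 and 538 on the IL-13 arrays (6, 18 and 48). The groups overlapped. Saline 6 was by far the highest array, and IL-13 18 was below the floor. The ratio of IL-13 to saline was 0.256 at title number 6 and 1.68 at 48, opposite in direction, and IL-13 6 was 2.28 times saline 48. IL-13 18 was at least 5.79-fold lower than saline 48 and at least 51.7-fold lower than saline 6. Ccl5 was the only one of the 8 tested member probe sets at least 2-fold beyond both saline arrays on IL-13 18, where 0.755% of tested probe sets were lower by this rule and 0.832% higher. The log2 difference was -1.78 (SE 1.32, limma adjusted p = 0.730), and it was -0.20 without saline 6, -3.36 without saline 48 and -0.61 without IL-13 18.

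Most of the genes with values alike those of Ccl5 were genes of B cells and lymph nodes. The 5 most alike genes were Prp2, a proline-rich protein (0.528), Cd79a, a chain of the B cell receptor (0.648), Glycam1, a ligand of L-selectin in lymph node vessels (0.760), Cxcl13, the B cell chemokine (0.772), and Cd22, a B cell lectin (0.833). Cd79a gave 2126 and 277 under saline, then 528, 127 and 783 under IL-13. Glycam1 gave 2959 and 93.7 under saline, then 747, 35.8 and 677 under IL-13. In all of them saline 6 was highest, as in the sum of B cell and lymph node markers (11090, 1414, 3271, 1257 and 3634 in the same order of arrays). The listed salivary gland markers were high only on saline 6, and their sum did not follow Ccl5 on the other 4 arrays. Prp2, which is not on the salivary list, gave 6216 and 988 under saline, then 944, 182 and 1824 under IL-13. Like Ccl5, Prp2 was lowest on IL-13 18. T cell markers differed from Ccl5 in being high on both saline arrays. The part of these cells in the Ccl5 values was not tested.

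**Figure D3:**
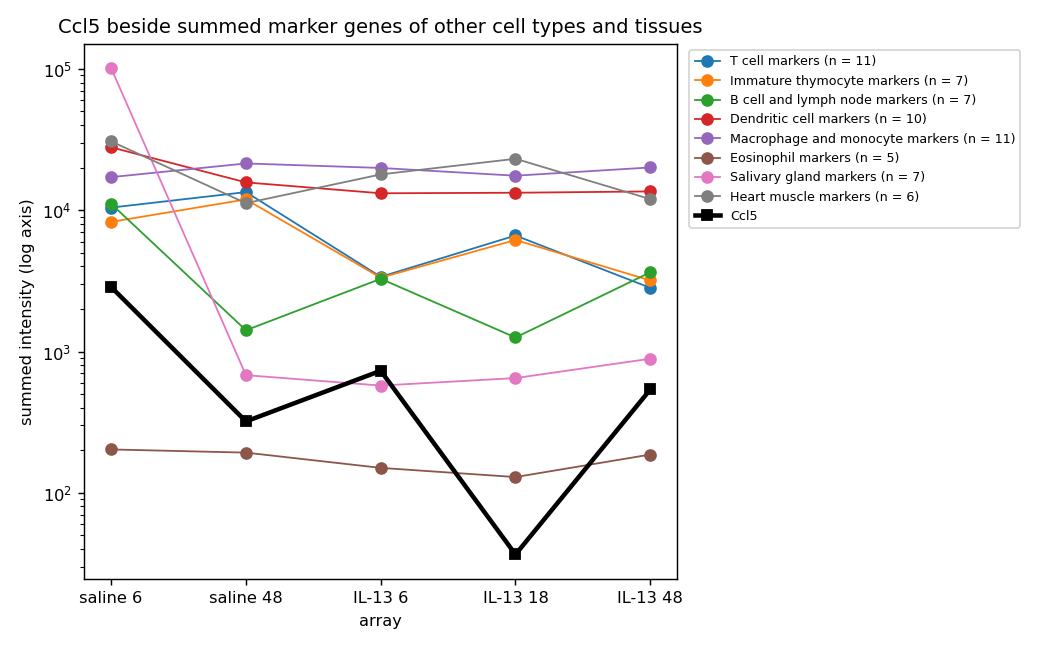
Summed intensity of marker genes of other cell types and tissues (vertical, log axis) on the 5 arrays (horizontal), with n the genes on the array, and Ccl5 in black. Lines join arrays for reading only; Ccl5 and the B cell and lymph node markers are highest on saline 6 (2859 and 11090) and lowest on IL-13 18 (36.6 and 1257).

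Cxcl12 was bright, and its 3 probe sets disagreed. Probe set 100112_at gave 882 and 1130.5 under saline, then 958, 1350 and 1250 under IL-13. Probe set 160511_at gave 1443 and 1194 under saline, then 699, 707 and 1148 under IL-13. Probe set 162234_f_at, named as a family set whose probes can also match related transcripts, gave 289 and 252.5 under saline, then 248, 380 and 220.01 under IL-13. Only for 160511_at did the groups separate, and IL-13 48 lay just under saline 48 there. The log2 differences were 0.23 (SE 0.22) for 100112_at, -0.66 (SE 0.27) for 160511_at and 0.02 (SE 0.27) for 162234_f_at, with limma adjusted p of 0.790, 0.529 and 0.981. At title number 6 the value of 160511_at was 2.06-fold lower with IL-13, and at 48 its ratio was 0.961. Smooth muscle and fibroblast markers (10 of 10, none below the floor throughout), from stromal cells that make Cxcl12, summed to 47763 and 48442 with saline and to 54388 to 58396 with IL-13. The collagens Col3a1 and Col1a2, picked after the values had been seen, carried that separation. The sum of the other 8 overlapped (36410 and 32898 under saline, then 40059, 37140 and 34805 under IL-13). Of the probe sets that stand for these 8, only that of Tcf21 separated (175 and 189 under saline, then 290, 517 and 282 under IL-13). The part of these cells in the Cxcl12 values was not tested. Cxcr4, a receptor of Cxcl12, gave 386 and 555 under saline, then 192, 477 and 176 under IL-13 (log2 difference -0.87, SE 0.45, limma adjusted p = 0.620). Ackr3, also on the receptor list, had a higher mean with IL-13, and its groups overlapped. It gave 491 and 746 under saline, then 574, 883 and 995 under IL-13 (log2 difference 0.40, SE 0.30, limma adjusted p = 0.743).

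By the rule for single pairs, at least 2-fold with the brighter array above 343, 2 of the 8 tested chemokine probe sets were higher (Ccl11 and Ccl9) and 2 lower (Ccl5 and the Cxcl12 probe set 160511_at) with IL-13 at title number 6. Of all tested probe sets 2.88% were higher and 3.15% lower. Against saline 48 in place of saline 6, 3 were higher (Ccl11, Ccl9 and Ccl5) and 0 lower, so Ccl5 changed direction. No share over all tested probe sets was taken for this control. At title number 48 none of the 8 met the rule in either direction, beside 0.935% higher and 1.69% lower of all tested probe sets. A pair of 1 array against 1 has no test.

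**Figure D4:**
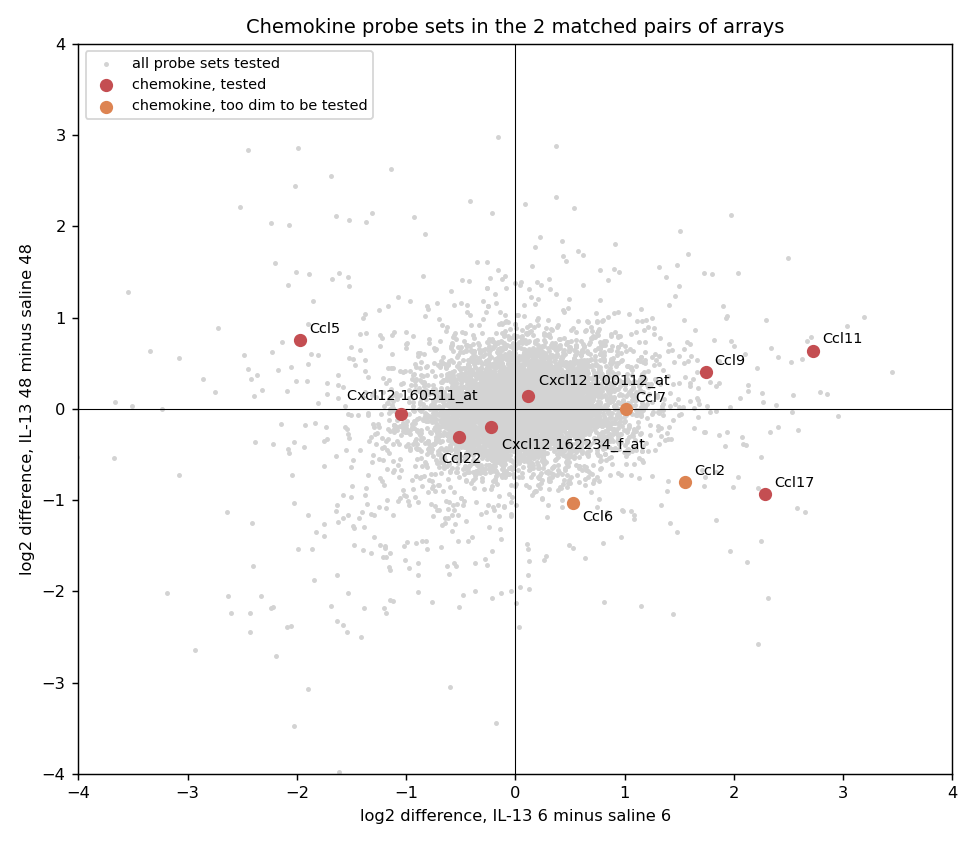
Log2 difference of IL-13 minus saline at title number 6 (horizontal) and 48 (vertical) for all 7811 tested probe sets (grey; 14 lie outside the axes) and the 11 chemokine probe sets (red tested, orange too dim). Ccl11, Ccl17, Ccl9, Ccl2 and Ccl7 lie at 1 or more to the right, and Ccl5 at the left.

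Chemokines outside the 10 members were mostly dim or overlapped between the groups. Of 27 other chemokines 16 were on the array and 8 were tested. None of these 8 passed in either direction, 2 had a higher and 6 a lower mean with IL-13, and the median log2 difference was -0.10, beside 0.04 over all tested probe sets. None of the 16 had its highest value on IL-13 6 on its brightest probe set, though a second, dim one of Cx3cl1 did (297, against 56.3 to 124 elsewhere). Ccl8, a monocyte chemokine of the same cluster as Ccl11, gave 298 and 498 under saline, then 375, 417 and 318 under IL-13 (log2 difference -0.07, limma adjusted p = 0.951). Ccl12, next to Ccl11, was below the floor on all arrays except IL-13 18 (80.1). Cx3cl1, which lies between Ccl22 and Ccl17, gave 725 and 854 under saline, then 486, 803 and 998 under IL-13 on its brighter probe set (limma adjusted p = 0.934).

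Chemokine receptors were mostly dim. Of 23 listed 19 were on the array and 7 were tested, of which none passed in either direction, 3 had a higher and 4 a lower mean, and the median log2 difference was -0.10. Ccr6 gave 715 and 143 under saline, then 403, 144 and 133 under IL-13. Among the receptors too dim to be tested, only Ccr1l1 had all IL-13 arrays above both saline arrays. It gave 34.6 and 47.0 under saline, then 166, 74.2 and 167 under IL-13. Ccr7 and Ackr1, also too dim, had all IL-13 arrays below both. Ccr1 lay near or below the floor (11.5 to 69.8). Ccr9, a receptor of thymocytes, gave 184 and 379 under saline, then 59.5, 223 and 75.4 under IL-13 (log2 difference -1.40, SE 0.60, limma adjusted p = 0.552). Its ligand Ccl25 gave 528 and 449 under saline, then 222, 467 and 213 under IL-13 (log2 difference -0.79, limma adjusted p = 0.577). Ccr9, Ccl25 and Cxcr4 were all lowest on IL-13 6 and 48, as was the sum of immature thymocyte markers (7 of 8 on the array), which was 8269 and 11927 under saline, then 3332, 6159 and 3184 under IL-13. None of these markers was below the floor on all arrays, and their part in these values was not tested.

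**Figure D5:**
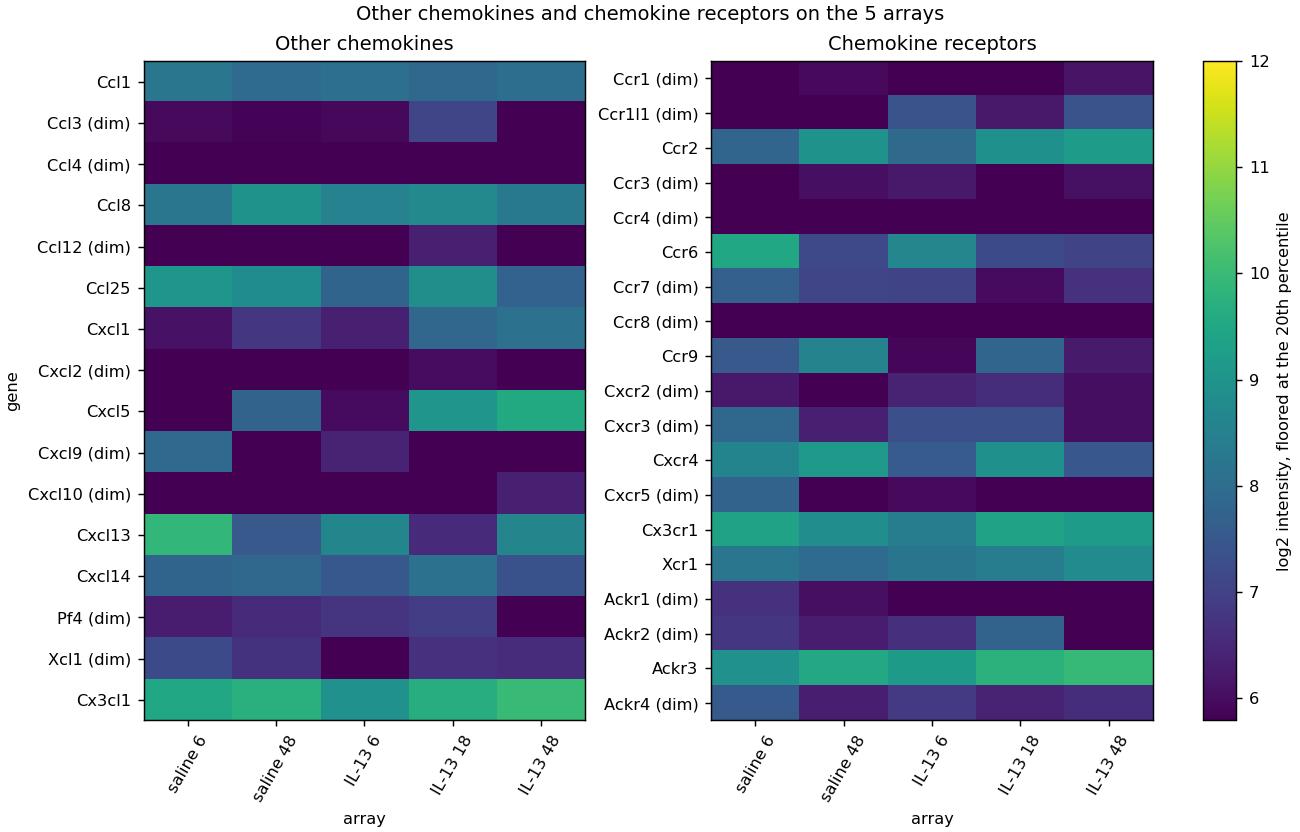
Log2 intensity, floored at 55.3, of the 16 other chemokines and 19 chemokine receptors on the array (rows) over the 5 arrays (columns). Genes marked dim were not tested; Ccr4 and Ccr8 are at the floor on every array.

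Of 10 genes of the IL-13 receptor and its signalling, 9 were on the array and 8 tested, of which 0 passed, 2 had a higher and 6 a lower mean, with a median log2 difference of -0.18. Il4ra, the receptor chain shared with IL-4, gave 683 and 838 under saline, then 599, 573 and 545 under IL-13, all below saline, on its brighter probe set. Its other probe set, too dim to be tested, overlapped (133 and 158 under saline, then 163, 155 and 149 under IL-13). Stat6 gave 1385 and 2151 under saline, then 1408, 1714 and 1801 under IL-13, and the groups overlapped. Neither passed (limma adjusted p = 0.561 and 0.935). Of 11 genes listed for their known response to IL-13, 9 were on the array and tested. All 9 had a higher mean under IL-13, as did 4322 of the 7811 tested probe sets. Their median log2 difference was 1.22, and 0 passed. All IL-13 arrays were above both saline arrays for 7 of the 9, beside 14.8% of tested probe sets. Arg1 and Serpinb2 overlapped, with ratios of 0.597 and 0.849 at title number 48.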

How the data were processed

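The authors deposited 1 table of intensities for 12488 probe sets on 5 arrays; how they were computed from the probes is not stated in these sources. The deposited intensities are already scaled (2% trimmed mean 799.85 to 799.88). The number of arrays limits the precision.

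The 66 control probe sets were left out. Arrays were brought to a common trimmed mean, floored at 55.3 and put on the log2 scale. Probe sets above 210 on at least 2 arrays (7811) were tested with limma 3.58.1 in R 4.3.3, treatment as the only term, over all 5 arrays (3 residual degrees of freedom). The fit was tested on simulated data. The annotation gave 1 symbol for 10833 probe sets, several for 396 and none for 1193; symbols were updated through the gene number. Of a gene's probe sets, the brightest tested one stands for it in lists. Named were all member probe sets, the 5 genes most alike Ccl11, Ccl17 and Ccl5, and list members that are receptors or on which a result turns. The members and lists were chosen with earlier results of these data known. Genes left out of a marker sum were picked after its values had been seen. Alternatives were other scalings, floors, filters, folds, variance models, title number as a block and leaving out each array. Figures were drawn with matplotlib 3.10.9.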

Additional observations from a re-analysis of the deposited data

Results flagged for a closer look

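Ccl5 was marked because its matched pairs point in opposite directions. The ratio of IL-13 to saline was 0.256 at title number 6 and 1.68 at title number 48, each from 1 array against 1, and no test compared the pairs. With the other saline array as the control the ratios were 2.28 at 6 and 0.188 at 48, so both directions turned.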

How the results depend on the processing

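No member probe set passed under any of the 14 alternatives to the limma fit. The count of Ccl11, Ccl9 and other probe sets with IL-13 above both saline arrays was 1 with a filter at the 60th percentile and 2 to 4 leaving out 1 array, and the count below was 1 to 3, both highest without saline 48 (the count below was 2 without IL-13 18). At title number 6 the count higher was 1 with the filter at the 60th percentile, and the count lower was 1 with a threshold of 3-fold and 0 against the other saline array. At 48 it was 2 higher with 1.5-fold, and 1 higher and 2 lower against the other saline array. For IL-13 18 it was 2 higher and 2 lower with 1.5-fold, and 0 lower with the floor at the 40th percentile. That floor left 4 of the 7 probe sets in the order of title numbers, since it levels the dim ones; leaving out IL-13 18 gave 9. The log2 difference of the Cxcl12 probe set 162234_f_at was -0.057 after quantile normalization, -0.21 with title number as a block, and -0.21 to 0.18 leaving out 1 array. That of Ccl22 was -1.11 to 0.24 leaving out 1 array. Of the other log2 differences none changed sign under the alternatives that could be fitted. Ccl17 was below the filter after quantile normalization. Where 1 saline array was left, it is assumed to vary like the IL-13 arrays. Leaving out an array can only keep or raise a count of groups that do not overlap. For these counts, those of the pairs and those of IL-13 18, no share over all tested probe sets was taken under the alternatives. They show how the member counts moved and not whether the members differ from other probe sets.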

Other observations

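The neutrophil-attracting CXC chemokines Cxcl5 and Cxcl1 ran opposite on the IL-13 arrays to the 7 member probe sets that were highest on 6 and lowest on 48. Cxcl5 had an intensity of 30.6 and 218 on the saline arrays (6 and 48), against 62.7, 525 and 749.9 on the IL-13 arrays (6, 18 and 48). Cxcl1 gave 68.2 and 109 under saline, then 80.3, 229 and 281 under IL-13. Both were low on the 2 arrays of title number 6 and highest on IL-13 48. Neither passed the test of IL-13 against saline (log2 difference 1.41, SE 1.12, limma adjusted p = 0.751 for Cxcl5, and 1.00, SE 0.54, adjusted p = 0.636 for Cxcl1). The second probe set of Cxcl1 was above the floor only on IL-13 48 (109). Neutrophil markers (9 of 9 on the array) summed to 1767 and 1754 under saline, then 2867, 2659 and 2203 under IL-13 6, 18 and 48, with Mmp8 and Mmp9 below the floor on all arrays. Csf3r and Il1r2, picked after the values had been seen, carried that separation. The other 7 summed to 557 and 961 under saline, then 708, 919 and 547 under IL-13, which overlap. Of these 7 only Ly6g, which was dim, also separated (67.7 and 28.9 under saline, then 109, 102 and 94.2 under IL-13).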
